A study of Mus musculus with 24 samples.

Results

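Aminoacyl-tRNA synthetases join each amino acid to its transfer RNA (tRNA), the charging step that supplies the ribosome. The 36 genes described here were taken from a list of symbols, 20 for enzymes of the cytosol and 16 for enzymes of the mitochondrion, and all 36 were matched among the 55487 genes measured by RNA sequencing. The study compared Nlrp14 knockout (KO) with wild-type (WT) mice in work on female infertility and early embryo arrest. Libraries were made with the SMART-Seq HT kit from 5 oocytes or embryos each, with 3 libraries per genotype and stage, 24 in all, which the labels call biological replicates. The 4 stages were oocytes at the germinal vesicle (GV) stage, oocytes arrested at metaphase II (MII), embryos at the pronuclear stage labelled PN5, and 2-cell embryos. At each stage the groups were labelled as Nlrp14 knockout (KO, written HO in the sample titles) or wild type. No other allele or agent was named for either. No source used here gave the strain, the age of the mice, the deleted part of Nlrp14 or the genotype of the sires. For PN5 and 2-cell embryos KO is therefore the name of the group, and the genotype of the embryos themselves is not known. Each p-value sets a difference between groups against the spread between these pooled libraries. The sample titles do not say how many mice supplied each pool, so this need not be the spread between mice.

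Most cytosolic synthetases have a separate mitochondrial counterpart encoded by its own nuclear gene, whereas Gars and Kars each serve both compartments. The cytosolic enzymes of 8 genes (Eprs, Iars, Lars, Mars1, Qars, Kars, Rars and Dars) are held together with scaffold proteins in the multisynthetase complex. Oocytes store messenger RNA and draw on it through maturation and fertilisation, until the embryo begins transcription on a large scale at the 2-cell stage in the mouse. Uncharged tRNA activates the kinase encoded by Eif2ak4, and the transcription factor ATF4 then induces genes of amino acid supply, among them many cytosolic synthetases.

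ATF4 binds with C/EBP proteins at a composite element whose core is TGATGNAA, so the promoters of the synthetase genes were searched for this core on both strands, each site counted once. RefSeq windows of 300 bases on GRCm38.p6, from 250 bases before to 50 after a gene's start, were at hand for 27 of the 36 genes. The core was found in 5 of them, against 4.51% of the 27025 mouse genes with such a window. All 5 were cytosolic, of 13 cytosolic genes with a window, and it was in no window of the 14 mitochondrial genes. The 5 windows are shown because they hold matches to the same core in synthetase genes whose calls at the 2-cell stage differed. The core is in capitals, which read TTNCATCA where it lies on the opposite strand. They are Aars at chr8:111033592-111033891 (plus strand, sites at -112 and 9 from the start), Gars at chr6:55037751-55038050 (plus strand, -30), Iars at chr13:49681880-49682179 (plus strand, 7), Tars at chr15:11399609-11399908 (minus strand, -15) and Yars at chr4:129189653-129189952 (plus strand, 3).
Aars: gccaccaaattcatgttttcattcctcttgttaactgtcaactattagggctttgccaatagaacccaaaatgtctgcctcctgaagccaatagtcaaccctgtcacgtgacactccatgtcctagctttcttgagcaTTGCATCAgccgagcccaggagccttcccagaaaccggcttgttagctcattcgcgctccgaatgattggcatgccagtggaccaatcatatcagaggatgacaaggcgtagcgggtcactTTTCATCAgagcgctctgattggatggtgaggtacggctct
Gars: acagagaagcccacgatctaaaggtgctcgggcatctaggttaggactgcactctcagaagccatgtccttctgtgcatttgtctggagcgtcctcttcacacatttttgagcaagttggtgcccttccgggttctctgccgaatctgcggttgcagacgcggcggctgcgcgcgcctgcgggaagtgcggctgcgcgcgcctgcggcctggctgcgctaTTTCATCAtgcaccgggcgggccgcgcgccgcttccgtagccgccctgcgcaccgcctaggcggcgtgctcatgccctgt
Iars: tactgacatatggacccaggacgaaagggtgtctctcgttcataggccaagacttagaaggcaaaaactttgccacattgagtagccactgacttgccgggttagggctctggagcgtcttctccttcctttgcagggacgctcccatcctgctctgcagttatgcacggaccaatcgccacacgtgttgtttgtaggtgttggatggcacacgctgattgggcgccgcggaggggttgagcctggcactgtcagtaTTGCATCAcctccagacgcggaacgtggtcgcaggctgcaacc
Tars: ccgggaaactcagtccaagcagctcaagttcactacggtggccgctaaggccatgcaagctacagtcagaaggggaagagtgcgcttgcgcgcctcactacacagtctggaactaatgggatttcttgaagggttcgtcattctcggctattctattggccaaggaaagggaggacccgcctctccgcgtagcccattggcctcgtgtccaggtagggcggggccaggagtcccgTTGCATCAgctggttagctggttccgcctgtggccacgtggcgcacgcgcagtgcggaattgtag
Yars: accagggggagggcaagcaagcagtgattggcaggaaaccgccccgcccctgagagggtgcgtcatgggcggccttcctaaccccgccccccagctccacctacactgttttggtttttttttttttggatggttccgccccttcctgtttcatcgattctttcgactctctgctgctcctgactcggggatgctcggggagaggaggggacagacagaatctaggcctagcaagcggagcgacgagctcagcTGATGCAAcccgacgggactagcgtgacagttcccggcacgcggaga
A match describes these letters and does not show a bound site. Between WT 2-cell and WT PN5 embryos, Iars was called higher, as were Aars and Yars, which entered the test through the 2-cell group alone, while Gars and Tars did not pass the test in that comparison.

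Expression is given as FPKM, a fragment count divided by transcript length and by library size. The depth recovered from low values of genes with 1 transcript was between 7653670 and 12288900 fragments per library. Since FPKM are shares of a library and each library pools several cells, a lower value cannot be told apart as fewer contributing embryos or as less RNA in each. Nlrp14 itself lay between 22.2 and 39.2 FPKM in KO GV oocytes, against 1876 to 2014 FPKM in WT GV oocytes. In 2-cell embryos Nlrp14 lay between 17.2 and 36.2 FPKM in KO, against 90.2 and 129 FPKM as the lowest and highest in WT. It was lower in KO PN5 embryos, between 5.75 and 8.48 FPKM, than in any KO 2-cell library. All 10 oocyte markers reached 1 FPKM, and 5 of 6 markers of the 2-cell embryo did, Duxf3 being the exception. Of 14 granulosa and cumulus markers, 7 reached 1 FPKM in some library: Cyp19a1 (up to 21.7 FPKM) and Nr5a2 (up to 11.4 FPKM) in 22 libraries each, Inha and Tnfaip6 (up to 32.6 FPKM) in 6 each, Amhr2 and Hsd17b1 in 3 each and Fshr in 1. Amh, Foxl2, Ptx3 and Has2 were among the 7 that did not. Of 6 blood and stroma markers, 2 did so, Pecam1 in 23 libraries (up to 8.47 FPKM) and Hba-a1 in 6 (up to 74.8 FPKM), while Hbb-bs was at 0 throughout and Ptprc at most 0.0518 FPKM. Of 7 sperm and spermatid markers, 4 did so, with Prm2 (up to 9.96 FPKM) and Odf1 (up to 4.81 FPKM) the highest, and Spata18 was at 0 throughout. Several libraries stood apart for the synthetases. In KO GV replicate 3, 21 of 24 detected synthetases lay below both other libraries of the group, with a median ratio of 0.430. The same held for 13 of 18 in WT PN5 replicate 1 (0.479) and for 24 of 29 in WT 2-cell replicate 3 (0.671), while 13 of 16 lay above both others in KO MII replicate 1 (1.44). These libraries also stood apart in FPKM summed over all genes. KO GV replicate 3 held 456463 against 372963 and 377823 in its group, and WT PN5 replicate 1 held 462297 against 369873 and 322159. WT 2-cell replicate 3 held 534727 against 469542 and 444357, and KO MII replicate 1 held 319979 against 378136 and 348329. The synthetase shifts are therefore not particular to these genes.

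Across the 24 libraries, 27 of the 36 synthetase genes reached 1 FPKM in at least 3 libraries, 19 of the 20 cytosolic and 8 of the 16 mitochondrial genes. Because FPKM are per length, levels can be set side by side between genes. The highest median over the libraries, 66.6 FPKM, was that of Farsb (chr1:78417975-78488897, minus strand, GENCODE M21 on GRCm38), at 32.6 to 120.0 FPKM. Farsb encodes the beta subunit of the cytosolic phenylalanine enzyme. By group mean, Rars ranked first in GV oocytes of both genotypes and in WT 2-cell embryos, and Farsb in the other groups. In all, 10 genes were at 1 FPKM or more in every library: the cytosolic Dars, Farsa, Farsb, Gars, Iars, Kars, Nars, Rars and Sars, and the mitochondrial Fars2. Fars2, the mitochondrial phenylalanine enzyme, varied the least among them, from 9.43 to 23.6 FPKM. The valine enzyme Vars stayed at or below 0.280 FPKM in all 24 libraries and was the 1 cytosolic gene under the filter. The mitochondrial Aars2, Iars2, Nars2, Vars2 and Wars2 also never reached 1 FPKM, and Lars2, Pars2 and Yars2 did so in 1 or 2 libraries. At these levels a value rests on few fragments, since a single fragment over 1 kb of transcript counted for between 0.0814 and 0.131 FPKM. The single high value of Lars2, 10.6 FPKM in WT 2-cell replicate 1, stood against 0.185 and 0.192 FPKM in the other 2-cell libraries of that genotype.

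**Figure D1:**
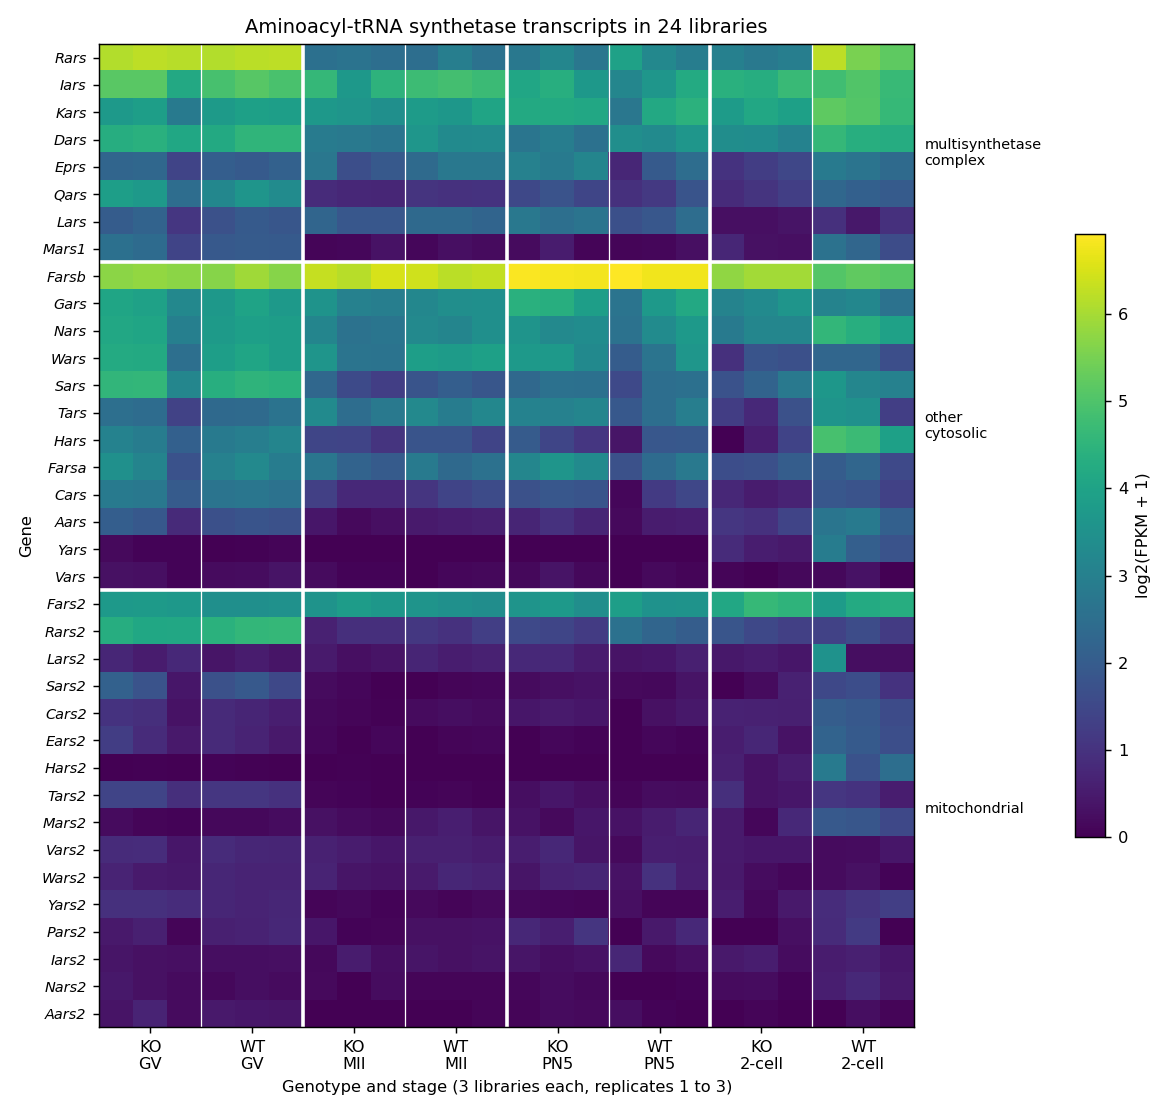
Levels of the 36 synthetase genes (rows, by compartment and complex) in the 24 libraries (columns, KO left of WT at each stage), as log2(FPKM + 1). Farsb is bright throughout, Rars is bright in GV oocytes of both genotypes and in WT 2-cell embryos, and most mitochondrial genes other than Fars2 and Rars2 are dark.

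In WT oocytes more synthetases were called lower than higher between MII and GV, with a cytosolic median close to that of all genes. Of 21 genes tested with limma on log2(FPKM + 1), 14 fell and 4 rose at an adjusted p under 0.05. Of all 11610 genes tested, 52.8% were called lower and 31.1% higher, and the median log2 difference was -0.52 over the 18 cytosolic genes tested and -0.50 over all genes. Sars2, Aars and Mars1 passed the filter of 1 FPKM in 3 libraries through the GV group alone and so had to be lower at MII. Of the 18 genes at 1 FPKM in libraries of both stages, 11 fell and 4 rose, where 41.9% of such genes fell and 37.2% rose.

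Both arginine enzymes lost most of their transcript share. Rars, the cytosolic enzyme and a member of the multisynthetase complex (chr11:35808381-35834506, minus strand), was at 4.64, 6.75 and 5.10 FPKM in WT MII oocytes, against 69.1, 72.3 and 74.7 FPKM in WT GV oocytes, a log2 difference of -3.50 ± 0.13 (SE, adjusted p = 1.19e-07). Rars2, its mitochondrial counterpart (chr4:34614957-34660167, plus strand), was at 1.19, 0.986 and 1.44 FPKM in MII oocytes, against 20.4, 23.1 and 23.3 FPKM in GV oocytes, a log2 difference of -3.40 ± 0.11 (adjusted p = 8.66e-08). The MII and GV libraries of both genes were far apart. The serine enzymes followed the same order. Sars, cytosolic, was at 2.49, 3.20 and 2.60 FPKM in MII oocytes, against 19.2, 21.6 and 20.6 FPKM in GV oocytes (log2 difference -2.51 ± 0.11, adjusted p = 2.97e-07). Sars2, mitochondrial, was at 0, 0.0635 and 0.0974 FPKM in MII oocytes, against 2.31, 2.84 and 1.83 FPKM in GV oocytes. Within the complex, Qars, which charges glutamine, was at 1.05, 0.986 and 1.01 FPKM in MII oocytes, against 8.20, 11.3 and 9.17 FPKM in GV oocytes (-2.38 ± 0.13, adjusted p = 8.51e-07). Mars1, the methionine enzyme needed by initiator tRNA, was at 0.0866, 0.208 and 0.156 FPKM in MII oocytes, against 2.84, 2.94 and 2.88 FPKM in GV oocytes.

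Hars, the cytosolic histidine enzyme, averaged 2.20 ± 0.479 FPKM in WT MII oocytes and 6.93 ± 0.881 FPKM in WT GV oocytes (SD, n = 3 libraries each), and Cars, the cysteine enzyme, 1.57 ± 0.455 FPKM in MII and 5.30 ± 0.225 FPKM in GV oocytes. Both fell by 1.31 on the log2 scale, with adjusted p of 5.91e-05 for Hars and 5.79e-05 for Cars by limma. Aars, Dars, Nars, Gars, Farsa and Iars were also called lower, with log2 differences between -1.20 and -0.23. The 4 that rose were Tars (threonine, 0.66 ± 0.13), Eprs (the fused glutamate and proline enzyme, 0.60 ± 0.13), Farsb (0.55 ± 0.10) and Lars (leucine, 0.48 ± 0.11). Wars, Kars and Fars2 did not pass the test, with log2 differences of -0.07, -0.03 and 0.02. Scaling by the median of ratios gave 7 higher and 10 lower and moved the median of all genes to -0.21, and under it Iars was above GV, as Gars was with the length trend removed. Without WT GV replicate 2 the count of lower genes was 9, with 76.9% of all genes tested called in either direction, and Sars2, Aars and Mars1 were then not tested.

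Between WT PN5 embryos and WT MII oocytes few synthetase transcripts changed. Of 18 tested, Rars2 rose and Iars, the isoleucine enzyme of the complex, fell, against 9.80% of 9375 genes called higher and 4.44% lower. Rars2 was at 4.99, 3.81 and 3.08 FPKM in PN5 embryos, against 1.19, 0.986 and 1.44 FPKM in MII oocytes (log2 difference 1.16 ± 0.22, adjusted p = 0.0125 by limma). Iars was at 7.999, 11.5 and 17.9 FPKM in PN5 embryos, against 25.6, 27.7 and 25.1 FPKM in MII oocytes (-1.08 ± 0.28, adjusted p = 0.0437). The libraries of the stages did not overlap for either gene, but no call survived each single omission. Without any 1 of the 3 WT MII libraries, or without WT PN5 replicate 2, there were 0 higher and 0 lower calls, with 4.05 to 5.45% of all genes called. Without WT PN5 replicate 3 there were 2 higher and 4 lower, with 30.0% of all genes called in either direction, and without WT PN5 replicate 1, which stood apart, 3 higher and 1 lower, with 19.3% of all genes called.

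Between WT 2-cell and WT PN5 embryos more synthetases were called higher than lower, while the summed level of the cytosolic genes overlapped. Summed over the 20 cytosolic genes, WT 2-cell libraries held 200.04 to 311 FPKM, against 183 to 239 FPKM in WT PN5 libraries. Mean shares were 0.0547% of all FPKM in 2-cell and 0.0564% in PN5 embryos. Leaving out Farsb and Rars, which was not planned beforehand, the sums were 130.5 to 205 FPKM in 2-cell and 48.4 to 125 FPKM in PN5 libraries, without overlap. Farsb was the largest term at PN5 and fell from a mean of 112 to 34.2 FPKM, so that leaving it out favours this separation. Of 26 genes tested, 16 rose and 3 fell, against 48.0% of 13398 genes called higher and 14.8% lower. In this comparison 8 genes (Aars, Mars1, Yars, Cars2, Ears2, Hars2, Mars2 and Sars2) passed the filter through the 2-cell group alone and so had to be higher there, and Lars passed through the PN5 group alone and had to be lower. The mitochondrial genes at 1 FPKM in both groups were Fars2, at a log2 difference of 0.45 that did not pass, and Rars2, at -0.90. Of the 17 genes at 1 FPKM in libraries of both stages, 8 rose and 2 fell, where 31.3% of such genes rose and 18.1% fell.

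Several synthetases below 1 FPKM in every WT PN5 library were above it in every WT 2-cell library. Yars, the cytosolic tyrosine enzyme (chr4:129189760-129219607, plus strand), was at 6.51, 3.23 and 2.42 FPKM in 2-cell embryos and listed at 0 in all 3 PN5 libraries. Hars2, the mitochondrial histidine enzyme (chr18:36783008-36792562, plus strand), was at 6.28, 2.34 and 4.61 FPKM in 2-cell embryos and likewise listed at 0 in PN5. No fold is given against these zeros. Ears2, the mitochondrial glutamate enzyme, was at 3.58, 2.86 and 2.16 FPKM in 2-cell embryos, against 0, 0.0964 and 0.0553 FPKM in PN5 embryos. Mars1 was at 5.15, 3.89 and 2.04 FPKM in 2-cell embryos, against 0.0764, 0.0928 and 0.219 FPKM in PN5 embryos. Aars, the alanine enzyme, was at 5.45, 6.09 and 3.34 FPKM in 2-cell embryos, against 0.131, 0.451 and 0.510 FPKM in PN5 embryos. For each of these genes every 2-cell library lay above every PN5 library. Exons of Aars overlap Exosc6 on the same strand, and those of Mars1 overlap Ddit3 on the opposite strand, so fragments of these pairs may be shared.

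On the log2(FPKM + 1) scale the largest increase was that of Hars (chr18:36766528-36783205, minus strand). Hars lies head to head with Hars2 and shares exon sequence with it on opposite strands. Hars was at 29.0, 25.2 and 14.1 FPKM in WT 2-cell embryos, against 0.320, 2.66 and 2.73 FPKM in WT PN5 embryos (3.12 ± 0.46, adjusted p = 0.000404). Rars was at 73.4, 45.1 and 35.996 FPKM in 2-cell embryos, against 14.4, 8.46 and 6.61 FPKM in PN5 embryos (2.28 ± 0.36, adjusted p = 0.000616), so that its 2-cell level reached the range of GV oocytes in 1 library. Strand use in the counting was not stated, and reads from the overlap of Hars and Hars2 cannot be told apart without it. Kars, Iars, Sars, Nars, Dars and Qars also rose, by log2 differences of 0.84 to 1.18. Falling against this, Farsb was at 32.6, 36.5 and 33.5 FPKM in 2-cell embryos, against 120.0, 107 and 108 FPKM in PN5 embryos (-1.68 ± 0.20, adjusted p = 0.000126). Rars2 also fell. Without WT 2-cell replicate 1, 2 or 3 the count of higher genes was 4, 3 or 7, with 37.5%, 40.1% or 43.3% of all genes called in either direction, and the 8 genes that pass through the 2-cell group alone were then not tested. With the median of ratios, TPM (FPKM rescaled to the same sum in every library) or the length trend removed it was 10, 10 or 9, with 6, 3 and 6 lower.

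In GV oocytes no synthetase passed the test between genotypes. Of 22 tested, 0 were called by limma and 0 had an unadjusted p under 0.05, and of all 11635 genes 0.0430% were called and 11.8% had such an unadjusted p. The 3 with the smallest p were Rars2, Fars2 and Kars. Rars2 was at 18.7, 16.5 and 16.8 FPKM in KO GV oocytes, against 20.4, 23.1 and 23.3 FPKM in WT GV oocytes (log2 difference -0.34 ± 0.15, adjusted p = 0.434). Fars2 was at 12.2, 12.6 and 11.8 FPKM in KO, against 9.99, 9.83 and 10.3 FPKM in WT (0.26 ± 0.15, adjusted p = 0.553). The groups of neither gene overlapped, but picking genes by smallest p favours this. Kars, the lysine enzyme, was at 12.4, 13.7 and 6.17 FPKM in KO, against 12.6, 14.3 and 13.8 FPKM in WT (-0.37 ± 0.28, adjusted p = 0.661), and its low value came from KO GV replicate 3. Without that library 1 gene, Mars1, was called higher in KO, with 8.97% of all genes called.

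In MII oocytes KO values lay below WT values for 14 of 16 tested synthetases, but none passed the test. By limma 0 were called and 3 had an unadjusted p under 0.05 (18.8%), against 2.28% of 8739 genes called and 29.1% with such an unadjusted p. Dars, the aspartate enzyme of the complex (chr1:128363707-128417368, minus strand), was at 6.36, 5.97 and 5.44 FPKM in KO MII oocytes, against 11.3, 8.88 and 9.20 FPKM in WT MII oocytes (-0.64 ± 0.17, adjusted p = 0.0729). Wars, the tryptophan enzyme, was at 11.2, 5.31 and 5.19 FPKM in KO, against 13.8, 12.8 and 14.1 FPKM in WT (-0.90 ± 0.27, adjusted p = 0.0900). Nars, the asparagine enzyme, was at 7.79, 5.13 and 5.45 FPKM in KO, against 8.53, 7.94 and 9.84 FPKM in WT (-0.47 ± 0.19, adjusted p = 0.152). All 3 genes had separate groups, but picking them by smallest p favours this. Among the 16 tested, 0 lay wholly above WT and 4 wholly below, and the same was not counted over all genes. Without KO MII replicate 1, the library with the highest synthetase levels of its group, 5 of 16 genes were called lower in KO (Iars, Wars, Eprs, Nars and Dars), with 36.2% of all genes called in either direction. The median of all genes was itself -0.18 here, and with the length trend removed 6 of 15 cytosolic differences were positive in place of 1.

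In PN5 embryos the cytosolic values leaned the other way, with 14 of 16 above WT, and again none passed the test. By limma 0 of 18 genes were called and 6 had an unadjusted p under 0.05 (33.3%), against 6.10% of 9483 genes called and 31.3% with such an unadjusted p. Rars2 was at 1.86, 1.74 and 1.31 FPKM in KO PN5 embryos, against 4.99, 3.81 and 3.08 FPKM in WT PN5 embryos (-0.90 ± 0.23, adjusted p = 0.0573). Farsa, the alpha subunit of the phenylalanine enzyme, was at 8.03, 11.2 and 8.84 FPKM in KO, against 2.28, 4.35 and 5.97 FPKM in WT (1.05 ± 0.31, adjusted p = 0.0772). Dars was at 5.51, 6.62 and 4.94 FPKM in KO, against 9.77, 8.90 and 11.5 FPKM in WT (-0.72 ± 0.22, adjusted p = 0.0821). The groups were separate for all 3 genes, but picking them by smallest p favours this. Among the 18 tested, 5 lay wholly above WT and 2 wholly below, and the same was not counted over all genes. Without WT PN5 replicate 3 there were 6 higher and 1 lower calls, with 32.9% of all genes called in either direction, whereas without WT PN5 replicate 1, the library with low synthetase levels, there were 0, with 6.72% of all genes called. One fit over all 24 libraries called Eprs and Cars higher and Rars2 and Dars lower, with 12.2% of all genes called.

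In 2-cell embryos most synthetase transcripts were lower in KO than in WT. Of 25 genes tested, 17 were lower and 1 was higher, against 40.3% of 13828 genes called lower and 14.0% higher. The 17 were 12 of 18 cytosolic genes, 6 of them among 7 tested genes of the multisynthetase complex, and 5 of 7 mitochondrial genes. All 5 lower mitochondrial genes entered the test through WT libraries alone, and the 2 at 1 FPKM in both genotypes, Fars2 and Rars2, did not pass, at log2 differences of 0.32 and 0.15. Summed over the 20 cytosolic genes, KO 2-cell libraries held 129.8 to 155 FPKM, against 200.04 to 311 FPKM in WT 2-cell libraries, or 0.0256 to 0.0319% of all FPKM in KO against 0.0374 to 0.0663% in WT.

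Of the 17 lower genes, 8 (Sars2, Ears2, Hars2, Cars2, Yars, Mars2, Cars and Mars1) passed the filter through WT libraries alone and so had to be lower in KO. Of the 17 tested genes at 1 FPKM in libraries of both genotypes, 9 were lower and 1 higher, where 34.9% of such genes were lower and 14.3% higher. Among the 36 genes, 11 were not tested: Lars, Vars, Aars2, Iars2, Lars2, Nars2, Pars2, Tars2, Vars2, Wars2 and Yars2.

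**Figure D2:**
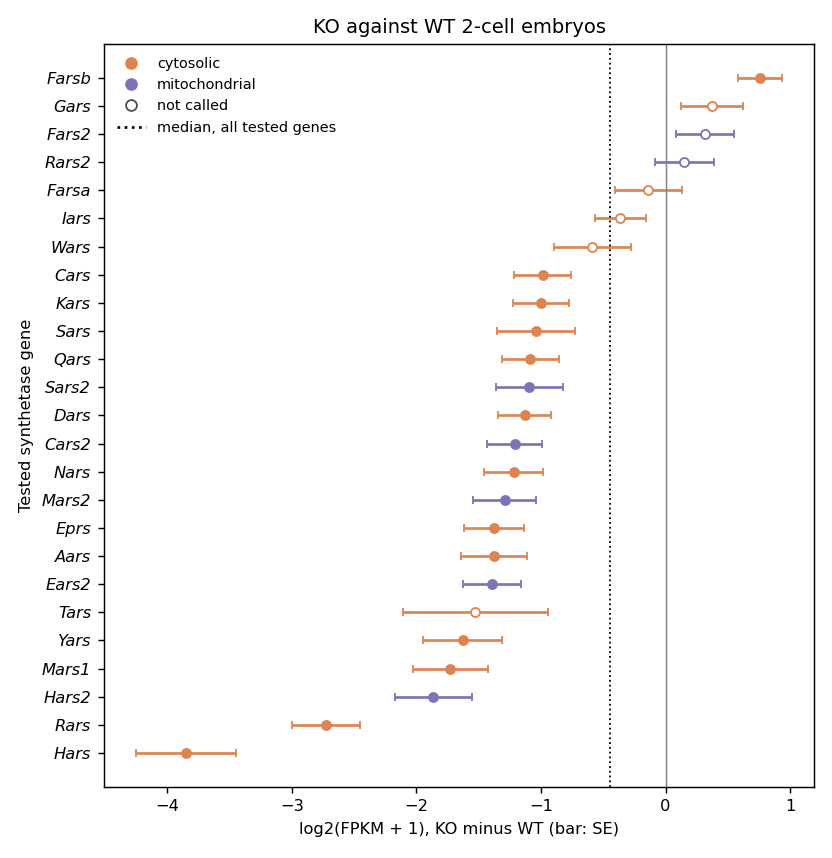
Log2 difference (x axis, log2(FPKM + 1), KO minus WT, bars SE) of the 25 synthetase genes tested in 2-cell embryos, ordered by size, with filled points for genes past an adjusted p of 0.05 and a dotted line at the median of all tested genes. Hars at -3.85 and Rars at -2.73 lie farthest to the left, and Farsb at 0.76 is the filled point to the right of 0.

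Hars showed the largest difference in log2(FPKM + 1). It was at 0, 0.497 and 1.63 FPKM in KO 2-cell embryos, against 29.0, 25.2 and 14.1 FPKM in WT 2-cell embryos, a log2 difference of -3.85 ± 0.40 (SE, adjusted p = 0.000316 by limma). Its divergent neighbour Hars2 was at 0.536, 0.274 and 0.446 FPKM in KO, against 6.28, 2.34 and 4.61 FPKM in WT. Both histidine enzymes were thus low in all KO libraries, with groups far apart. Rars was at 7.10, 5.96 and 6.73 FPKM in KO, against 73.4, 45.1 and 35.996 FPKM in WT (-2.73 ± 0.28, adjusted p = 0.000299), or 12.8% of the WT mean. The KO libraries agreed closely on Rars, while the WT libraries spread widely. Rars2, in contrast, was at 2.52, 1.81 and 1.49 FPKM in KO and 1.57, 2.05 and 1.32 FPKM in WT and did not pass the test (0.15 ± 0.24, adjusted p = 0.618).

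In the multisynthetase complex, Eprs was at 1.01, 1.41 and 1.79 FPKM in KO 2-cell embryos, against 6.13, 5.32 and 4.24 FPKM in WT (-1.38 ± 0.24, adjusted p = 0.00194). Dars was at 9.51, 9.39 and 7.31 FPKM in KO, against 23.2, 19.1 and 18.6 FPKM in WT (-1.13 ± 0.21, adjusted p = 0.00248), and its KO libraries had also lain below all WT libraries at MII and PN5. Mars1 was at 0.669, 0.246 and 0.208 FPKM in KO, against 5.15, 3.89 and 2.04 FPKM in WT. Every KO library lay below every WT library for these genes. Qars averaged 1.10 ± 0.324 FPKM in KO and 3.43 ± 0.471 FPKM in WT, and Kars 14.7 ± 1.93 FPKM in KO and 30.6 ± 6.21 FPKM in WT (SD, n = 3 each). Iars was the tested member of the complex that did not pass, at 20.1, 18.8 and 24.6 FPKM in KO and 26.6, 31.9 and 24.2 FPKM in WT (-0.36 ± 0.21, adjusted p = 0.169). Lars was too low to be tested, at 0.226, 0.215 and 0.282 FPKM in KO and 0.959, 0.359 and 0.944 FPKM in WT.

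Among the cytosolic enzymes outside the complex, Yars was at 0.816, 0.458 and 0.388 FPKM in KO 2-cell embryos, against 6.51, 3.23 and 2.42 FPKM in WT. Aars was at 1.14, 0.985 and 1.66 FPKM in KO, against 5.45, 6.09 and 3.34 FPKM in WT (-1.38 ± 0.27, adjusted p = 0.00301). The levels of both in KO were above 0 in each library and below each WT library. Nars averaged 7.44 ± 1.02 FPKM in KO and 18.9 ± 4.22 FPKM in WT, and Sars 3.97 ± 1.81 FPKM in KO and 8.93 ± 2.31 FPKM in WT (SD, n = 3 each), both called lower. Tars was at 1.39, 0.746 and 2.28 FPKM in KO, against 10.97, 10.3 and 1.44 FPKM in WT, with 1 low WT library that overlapped the KO group (-1.53 ± 0.58, adjusted p = 0.0533). Gars, Wars and Farsa did not pass the test, with log2 differences of 0.37, -0.59 and -0.14.

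Among the mitochondrial enzymes, Ears2 was at 0.463, 0.664 and 0.270 FPKM in KO 2-cell embryos, against 3.58, 2.86 and 2.16 FPKM in WT. Mars2, whose gene has a single transcript, so that its fragments could be counted, had 37.0, 8.01 and 69.05 fragments in KO, against 264, 288 and 160.1 fragments in WT. Cars2 averaged 0.554 ± 0.0329 FPKM in KO and 2.63 ± 0.577 FPKM in WT (SD, n = 3 each). These genes were scarce in KO libraries but not absent. Fars2 was at 16.7, 23.6 and 21.8 FPKM in KO and 13.0, 17.7 and 18.7 FPKM in WT and did not pass the test (0.32 ± 0.23, adjusted p = 0.277).

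**Figure D3:**
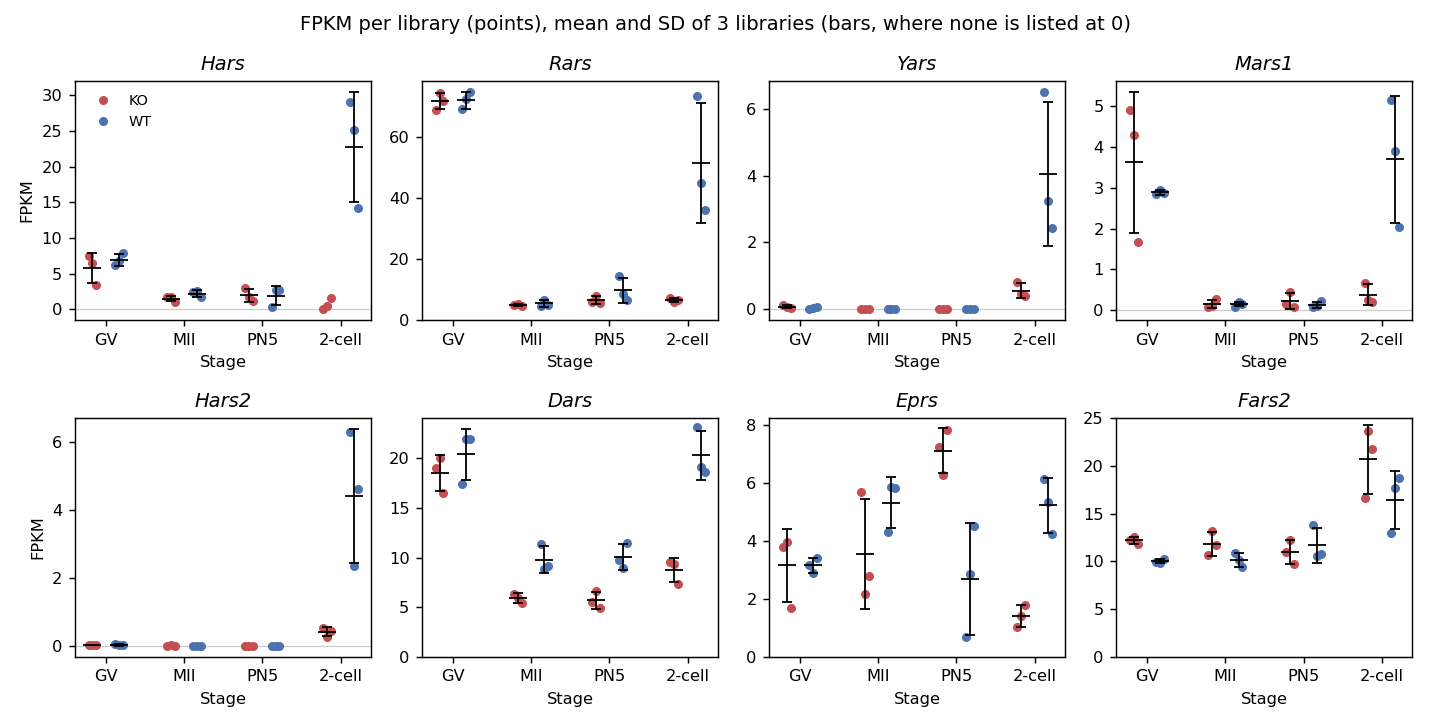
FPKM (y axis, linear) of 8 synthetase genes by stage (x axis), each point 1 library, KO left of WT, with the mean and SD of 3 libraries as bars where none is listed at 0. Hars, Rars, Yars, Mars1 and Hars2 are high in WT 2-cell embryos and low in KO 2-cell embryos, while Fars2 overlaps between genotypes at that stage.

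With the median of ratios, 3 genes were higher and 15 lower in KO, and with the length trend removed 4 and 13. Without WT 2-cell replicate 1, 2 or 3, 8, 9 or 10 genes were lower, with 40.1%, 43.3% or 48.8% of all genes called in either direction, and the 8 that passed through WT alone were then not tested. Of all genes, 11736 to 12037 reached 1 FPKM in KO 2-cell libraries, against 14128 to 14561 in WT 2-cell libraries. Summed oocyte markers were 3811 to 4568 FPKM in KO and 1207 to 1620 FPKM in WT, most of it Oosp1 and Bmp15. Summed 2-cell markers were 838 to 1163 FPKM in KO and 499.5 to 740.2 FPKM in WT, most of it Zscan4d and Zscan4c. By gene, 5 of 10 oocyte markers were called higher in KO and 1 lower. For 2-cell markers it was 2 higher and 1 lower of 5 tested, against 14.0% of all genes higher and 40.3% lower. Summed granulosa and cumulus markers were 8.63 to 12.0 FPKM in KO and 32.5 to 47.5 FPKM in WT, most of it Tnfaip6, Nr5a2 and Amhr2, and blood and stroma markers were 13.2 to 21.3 FPKM in KO and 45.2 to 77.8 FPKM in WT, most of it Hba-a1. Summed sperm and spermatid markers were 3.86 to 4.66 FPKM in KO and 2.35 to 3.63 FPKM in WT. The part of these differences in the synthetase result was not tested.

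Within KO, fewer synthetases were called higher than lower between PN5 and the 2-cell stage. Of 18 genes tested within KO, 2 rose and 9 fell, against 43.8% of 11450 genes called higher and 26.8% lower. Lars and Cars passed the filter through the PN5 group alone and so had to be lower at the 2-cell stage. Lars was at 0.226, 0.215 and 0.282 FPKM in KO 2-cell embryos, against 5.86, 4.73 and 5.37 FPKM in KO PN5 embryos. Wars was at 0.936, 2.47 and 2.25 FPKM in 2-cell embryos, against 12.2, 12.3 and 8.78 FPKM in PN5 embryos (-2.10 ± 0.26, adjusted p = 0.000228). The stages were fully separate for both genes. Tars was at 1.39, 0.746 and 2.28 FPKM in 2-cell embryos, against 7.34, 7.26 and 7.92 FPKM in PN5 embryos, and Eprs at 1.01, 1.41 and 1.79 FPKM in 2-cell embryos, against 7.25, 6.28 and 7.81 FPKM in PN5 embryos. Farsa, Farsb, Gars and Qars also fell, by log2 differences of -1.57 to -0.52.

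The 2 genes that rose in KO were Fars2, at 16.7, 23.6 and 21.8 FPKM in 2-cell embryos against 10.95, 12.2 and 9.76 FPKM in PN5 embryos (0.85 ± 0.17, adjusted p = 0.00297), and Dars, which averaged 8.74 ± 1.24 FPKM in 2-cell and 5.69 ± 0.855 FPKM in PN5 embryos (SD, n = 3 each). The call of Dars depended on the scaling, with a difference of -0.02 in TPM. In TPM 0 genes rose and 14 fell in KO, and with the median of ratios 1 rose and 12 fell. Rars, called higher at the 2-cell stage in WT, was at 7.10, 5.96 and 6.73 FPKM in KO 2-cell embryos and 5.78, 8.05 and 5.65 FPKM in KO PN5 embryos (0.03 ± 0.17, adjusted p = 0.878).

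The KO and WT changes share no library, and their difference was tested as an interaction. The change from PN5 to the 2-cell stage differed between genotypes for 22 of 26 synthetases. It was smaller or more negative in KO for 20 and larger for 2, Farsb and Rars2, against 31.9% and 13.8% of 14986 genes. Of the 20, 7 (Hars2, Yars, Mars2, Ears2, Cars2, Sars2 and Mars1) reached 1 FPKM in WT 2-cell libraries alone among the 4 groups, so that the filter favoured their direction. Of the other 19 tested, 13 were smaller or more negative in KO and 2 larger. Because the interaction also takes in genotype differences at PN5, it does not rest on the 2-cell stage alone. Farsa, Wars, Tars and Rars2 were not called between genotypes in 2-cell embryos, and Lars was not tested there. Libraries of Farsa and Rars2 overlapped between genotypes in 2-cell embryos but were separate at PN5, where neither gene passed. The interactions of highest size were those of Hars at -3.97 ± 0.64 (adjusted p = 0.000588), Eprs at -2.67 ± 0.49 (adjusted p = 0.00122) and Rars at -2.25 ± 0.42 (adjusted p = 0.00135). The change of Hars was -0.84 in KO, where it did not pass the test (adjusted p = 0.0766), and 3.12 in WT. The fitted change of all 36 genes, counted with no filter, was smaller in KO for 31. These were 19 of the 20 cytosolic and 12 of the 16 mitochondrial genes. The same count over all genes was not made, and the median difference over the 14986 tested genes was itself -0.43. Dars, Iars, Fars2 and Gars did not pass the interaction test. Without WT 2-cell replicate 1, 2 or 3 the 20 became 8, 9 or 13, with 35.3%, 38.0% or 43.2% of all genes called in either direction, and 12 with the length trend removed. For the change from GV to MII, 0 of 22 genes passed and 1 (4.55%) had an unadjusted p under 0.05, against 0.120% and 6.64% of 12478 genes. For the change from MII to PN5, 0 of 18 passed and 7 (38.9%) had an unadjusted p under 0.05, against 7.45% and 38.6% of 10190 genes, with Eprs at 1.83 ± 0.54 the nearest (adjusted p = 0.0532). In that second interval 10 higher and 1 lower were called without WT PN5 replicate 3, where 41.4% of all genes were called in either direction, and 6 higher without KO MII replicate 1, where 26.5% were.

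**Figure D4:**
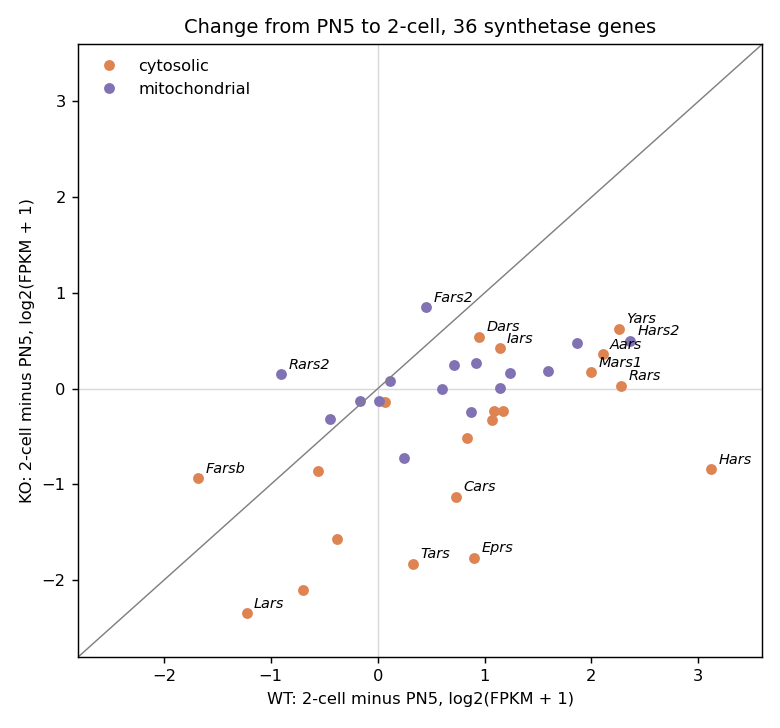
Change from PN5 to the 2-cell stage in log2(FPKM + 1) for the 36 synthetase genes, in WT (x axis) and in KO (y axis), with the diagonal marking equal change. Of the 36 points 31 lie below the diagonal, Hars farthest from it, and Farsb, Rars2, Fars2, Vars2 and Wars2 lie above.

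The subunits of the cytosolic phenylalanine enzyme differed in level and in their change. The enzyme is built from alpha (Farsa) and beta (Farsb) chains in equal number, yet the Farsb level was 5.13 to 52.7 times that of Farsa in the same library. Farsb was at 54.0, 60.9 and 61.3 FPKM in KO 2-cell embryos, against 32.6, 36.5 and 33.5 FPKM in WT 2-cell embryos (0.76 ± 0.18, adjusted p = 0.00666), the single synthetase called higher in KO. The groups did not overlap, and the call was made in each of the alternatives run. Farsa was at 2.11, 2.24 and 3.13 FPKM in KO and 3.00, 3.85 and 1.87 FPKM in WT (-0.14 ± 0.27, adjusted p = 0.684). At PN5 Farsb averaged 113 ± 2.81 FPKM in KO and 112 ± 7.18 FPKM in WT (SD, n = 3 each), a log2 difference of 0.02 ± 0.17. Farsb then fell by 0.93 on the log2 scale in KO and by 1.68 in WT. Its interaction was 0.74 ± 0.21 (adjusted p = 0.0113 by limma), which was not called in TPM. Exons of Farsb overlap Sgpp2 on the opposite strand, and fragments of that overlap cannot be assigned without strand.

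**Figure D5:**
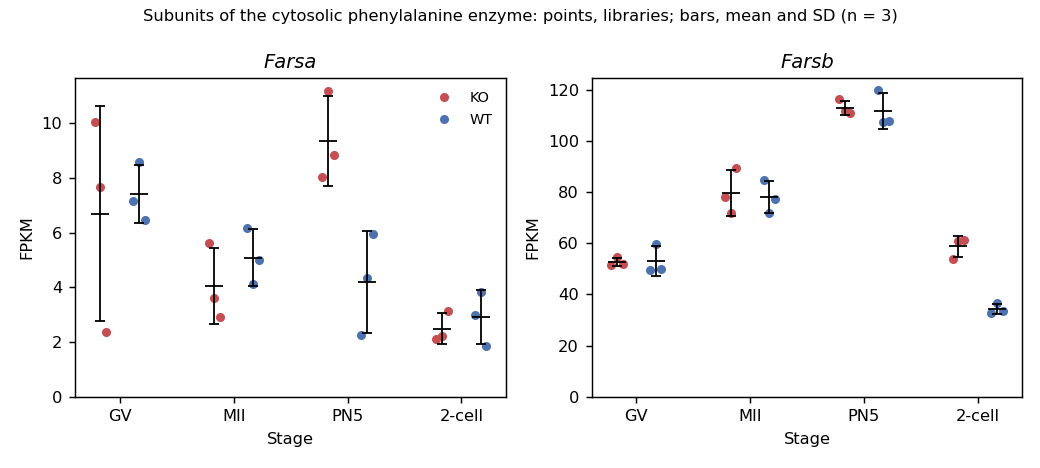
FPKM (y axes, linear, from 0) of Farsa and Farsb by stage (x axis), points for libraries and bars for the mean and SD of 3, KO left of WT. Farsb peaks at PN5 in both genotypes and is higher in KO than in WT 2-cell embryos, while Farsa overlaps between genotypes in 2-cell embryos.

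Lists of related genes were counted in the same fits, in which 40.3% of all genes were lower and 14.0% higher in KO 2-cell embryos, or 34.9% and 14.3% of the genes at 1 FPKM in both genotypes. Of 6 tested scaffold and delivery genes, 3 were lower and 0 higher in KO 2-cell embryos, with a median log2 difference of -0.52 against -0.44 over all genes. Eef1g, a subunit of the exchange factor for the elongation factor that carries charged tRNA, averaged 1.22 ± 0.386 FPKM in KO and 6.91 ± 2.78 FPKM in WT (SD, n = 3 each here and for the genes that follow), a log2 difference of -1.78 (adjusted p = 0.00185). Aimp2, a scaffold of the multisynthetase complex, averaged 42.1 ± 5.75 FPKM in KO and 86.6 ± 17.4 FPKM in WT (-1.01, adjusted p = 0.00464), and Eef1d, another exchange factor subunit, was lower by 0.85 (log2 difference -0.85). At PN5 the scaffold gene Eef1e1 was lower in KO, at 3.19 ± 0.548 FPKM against 11.01 ± 2.80 FPKM in WT (-1.50, adjusted p = 0.0354), and it did not pass in 2-cell embryos.

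Of 15 tested genes of tRNA maturation, modification and export, 14 were lower and 0 higher in KO 2-cell embryos. Of these, 6, Trmt61a and Tsen15 among them, passed the filter through WT libraries alone, and of the other 9 tested 8 were lower. Ssb, which encodes the La protein that binds new RNA polymerase III transcripts, averaged 32.7 ± 7.11 FPKM in KO and 103 ± 10.7 FPKM in WT (-1.65, adjusted p = 0.000655). Nsun2, a cytosine methyltransferase, was at -1.73 on the log2 scale. Trmt61a, of the methyltransferase that modifies adenosine in tRNA, averaged 0.144 ± 0.125 FPKM in KO and 2.67 ± 0.574 FPKM in WT, and Tsen15, of the splicing endonuclease, 0.238 ± 0.152 FPKM in KO and 3.76 ± 1.19 FPKM in WT. In WT 10 of the 15 genes of this list rose and 1 fell between PN5 and the 2-cell stage, against 48.0% and 14.8% of all genes. In that comparison 8 passed the filter through 1 stage alone. Of the other 7, 2 rose and 1 fell, against 31.3% and 18.1% of genes at 1 FPKM in both stages. No gene of this list passed between genotypes at GV, MII or PN5 by limma.

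Of 14 tested mitochondrial charging partners and translation factors, 5 were lower and 0 higher in KO 2-cell embryos. Of all genes 40.3% were lower and 14.0% higher, and with 14 genes no contrast with that share was drawn. Gtpbp3 and Tufm passed the filter through WT libraries alone, and of the other 12 tested 3 were lower. Qrsl1, of the amidotransferase that makes glutaminyl-tRNA in mitochondria in place of a synthetase, averaged 0.983 ± 0.401 FPKM in KO and 4.12 ± 0.881 FPKM in WT (-1.38, adjusted p = 0.00251). The initiation factor gene Mtif2 was at -1.24. Gtpbp3, a tRNA modification enzyme, averaged 0.225 ± 0.0930 FPKM in KO and 2.81 ± 0.723 FPKM in WT, and the elongation factor gene Tufm 0.169 ± 0.0364 FPKM in KO and 1.91 ± 0.792 FPKM in WT. Gfm1, an elongation factor gene, also passed. At PN5 the release factor gene Mtrf1 was lower in KO, at 1.58 ± 0.256 FPKM against 4.11 ± 0.592 FPKM in WT (-0.98, adjusted p = 0.0411). Of 6 tested genes for editing and related proteins, 5 were lower and 0 higher in KO 2-cell embryos, 1 of the 5, Dtd1, through WT libraries alone. Prorsd1, related to the editing domain of the proline enzyme, was at -1.40. Dtd1, a deacylase of tRNA charged with D-amino acids, averaged 0.537 ± 0.412 FPKM in KO and 1.97 ± 0.780 FPKM in WT.

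Genes of the amino acid response moved in both directions in KO 2-cell embryos. Of 20 tested entries, 8 were lower and 5 higher, and 3 of the 8 (Asns, Phgdh and Slc7a5) passed the filter through WT libraries alone. The symbol Ddit3 belongs to 2 overlapping gene models, and the values given here are those of the longer. Psat1, an enzyme of serine synthesis, averaged 5.25 ± 1.87 FPKM in KO and 32.0 ± 1.29 FPKM in WT (-2.45, adjusted p = 0.000359). Eif4ebp1, an inhibitor of cap-dependent initiation, averaged 7.43 ± 2.10 FPKM in KO and 33.8 ± 9.99 FPKM in WT (-2.04, adjusted p = 0.000718), and Sesn2, a leucine sensor upstream of mTORC1, was at -2.17. Ddit3, a transcription factor of the stress response, was higher, at 54.2 ± 6.85 FPKM in KO and 21.9 ± 2.90 FPKM in WT (1.27, adjusted p = 0.00127). Of the 5 synthetases with the core in their promoters, Aars and Yars were lower in KO 2-cell embryos, Yars having entered the test through WT libraries alone, and Gars, Iars and Tars did not pass the test. At PN5 0 genes of this list passed, with a median of 0.56 against 0.01 over all genes.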

How the data were processed

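RNA sequencing of 24 libraries, in 8 groups of 3, gave 1 deposited table of FPKM per library, which the authors made with StringTie on GRCm38, per the submitters' processing notes. The aligner, the annotation and the use of strand are not stated by any label or header, so antisense and overlapping genes are uncertain. Of 55487 gene IDs, 55227 were matched to GENCODE M21 symbols. Among genes with 1 transcript, 98.8 to 99.2% of low values were whole multiples of 1 fragment, which gave the depth. Genes with several transcripts gave no whole fragments, so no count model was run.

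Each comparison was fitted with limma 3.58.1 (R 4.3.3, trend and robust empirical Bayes) on log2(FPKM + 1), using the libraries of the groups compared, over all genes at 1 FPKM or more in 3 libraries. P-values were adjusted by Benjamini-Hochberg over all genes tested, and calls were made under 0.05. Fold changes on this scale understate the change of low genes. Tables and figures used Python 3.11.15, pandas 2.3.3, numpy 2.4.6 and matplotlib 3.10.9. Changes of stage were compared between genotypes with an interaction term. The fit was tested on simulated data. Alternatives changed the pseudocount, filter and scaling, fitted all 24 libraries together, added the replicate number or left out 1 library at a time. Per comparison the rule gave values for up to 8 called synthetases with the largest difference, or the 3 with the smallest p where none was called, and up to 4 called genes of each other list. Values of further genes (Gfm1 and Dtd1 among them) were added after they were seen. The members and gene lists were chosen with earlier results of these data known.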

Additional observations from a re-analysis of the deposited data

Results flagged for a closer look

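For 22 synthetases the change from PN5 to the 2-cell stage differed between KO and WT embryos, by the interaction term in limma at an adjusted p under 0.05. Of these, 7 (Hars2, Yars, Mars2, Ears2, Cars2, Sars2 and Mars1, among them all 5 of the lower mitochondrial genes) reached 1 FPKM in WT 2-cell libraries alone among the 4 groups, so that the filter favoured their direction. The values below are KO change minus WT change in log2(FPKM + 1). They take in any genotype difference at PN5, and Farsa, Wars, Tars and Rars2 were not called between genotypes in 2-cell embryos. Lars was not tested between genotypes in 2-cell embryos. In the multisynthetase complex the difference was -2.67 for Eprs, -2.25 for Rars, -1.83 for Mars1, -1.41 for Kars, -1.35 for Qars and -1.12 for Lars. Among the other cytosolic enzymes it was -3.97 for Hars, -2.16 for Tars, -1.86 for Cars, -1.75 for Aars, -1.63 for Yars, -1.40 for Wars, -1.40 for Nars, -1.33 for Sars and -1.19 for Farsa, and 0.74 for Farsb. Among the mitochondrial enzymes it was -1.86 for Hars2, -1.41 for Cars2, -1.39 for Ears2, -1.14 for Sars2 and -1.07 for Mars2, and 1.05 for Rars2.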

How the results depend on the processing

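Counts of called synthetases moved with several settings, and the cause was not tested except where a stricter filter left fewer genes. In this paragraph percentages in brackets are the shares of all genes called in either direction in the same setting. With genes of a mean of at least 5 FPKM, 6 of 10 tested were lower in KO than WT 2-cell embryos (63.7%). As reported, 17 of 25 were (54.3%). With that filter 2 of 14 tested were higher and 9 lower in WT MII over GV (89.8%). In WT PN5 over MII 0 of 10 were higher (16.9%). In WT 2-cell over PN5 7 of 11 were higher and 1 lower (66.5%), and in KO 2-cell over PN5 4 of 10 were lower (78.7%). The interactions then gave 2 higher of 11 for MII to PN5 (24.2%), and 1 higher and 7 lower of 12 for PN5 to 2-cell (49.5%). The scalings and the pseudocount tested the same number of synthetases as reported. Median-of-ratios scaling gave 3 higher in KO 2-cell embryos (51.6%) and 7 higher in WT MII over GV (85.1%). It gave 10 higher and 6 lower in WT 2-cell over PN5 (64.4%) and 1 higher in KO 2-cell over PN5 (70.6%). In the MII to PN5 interaction 3 were higher (10.6%). TPM gave 0 lower in WT PN5 over MII (8.27%) and 10 higher in WT 2-cell over PN5 (57.9%). It gave 0 higher and 14 lower in KO 2-cell over PN5 (70.9%) and 1 higher in the PN5 to 2-cell interaction (40.9%). Removing the length trend gave 4 higher in KO 2-cell embryos (50.9%) and 9 higher and 6 lower in WT 2-cell over PN5 (65.65%). In the PN5 to 2-cell interaction 12 were then lower (41.8%). A pseudocount of 0.1 FPKM gave 0 lower in WT PN5 over MII, as did no filter, which gave 4 higher in KO 2-cell over PN5. All 24 libraries in 1 fit, with 27 synthetases tested, gave 2 higher and 2 lower between genotypes at PN5 (12.2%). That fit gave 1 higher in WT MII over GV (56.4%) and 2 higher in WT PN5 over MII (13.6%). It gave 5 higher in KO 2-cell over PN5 (58.1%) and 1 higher in the MII to PN5 interaction (6.56%).

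Of the genes named, Iars in WT MII over GV turned to 0.17 with the median of ratios and 0.0573 in TPM, Gars to 0.12 with the length trend removed, and Dars in KO 2-cell over PN5 to -0.0153 in TPM. Leaving out 1 library at a time gave 0 to 1 higher between genotypes at GV and 0 to 5 lower at MII. At PN5 it gave 0 to 6 higher and 0 to 1 lower. At the 2-cell stage 8 to 17 were lower, with 17 to 25 tested. Calls over all genes then ranged from 1 to 1026 at GV and from 3 to 3083 at MII. They ranged from 1 to 2967 at PN5 and from 4855 to 6606 at the 2-cell stage. The synthetase ranges were 9 to 13 lower for WT MII over GV, with 6926 to 9278 of all genes called. For WT PN5 over MII they were 0 to 3 higher and 0 to 4 lower, with 360 to 2632 of all genes. For WT 2-cell over PN5 they were 3 to 18 higher and 2 to 4 lower, with 3656 to 8459. For KO 2-cell over PN5 they were 1 to 3 higher and 6 to 10 lower, with 5721 to 7051. In the MII to PN5 interaction the range was 0 to 10 higher and 0 to 1 lower, with 0 to 4130 of all genes. In that of PN5 to 2-cell it was 8 to 21 lower, with 4817 to 7372 of all genes.

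Same-numbered KO and WT libraries did not deviate together, with correlations of -0.19 to 0.21 at GV and -0.21 to 0.01 at MII. The correlations were -0.02 to 0.01 at PN5 and -0.17 to -0.01 at the 2-cell stage. The labels state no pairing, and with 3 libraries a group these values cannot exclude a shared preparation. With the replicate block there were 1 higher and 17 lower in KO 2-cell embryos, with 50.7% of all genes called. In the PN5 to 2-cell interaction there were 2 higher and 19 lower, with 44.0% of all genes called. Over all genes, calls in KO against WT 2-cell embryos ranged from 4052 to 9187 over the other settings (7513 as reported), and at PN5 from 1 to 2005 (578 as reported). With 3 libraries a group, low genes rest on few fragments, and a p above the threshold does not show that genotypes were alike.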
